A study of Mus musculus with 12 samples.

Results

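The immunoglobulin heavy and light chain genes were followed in the spleens of naïve and proteoglycan (PG)-immunized mice of the BALB/cJ and BALB/cByJ colonies. Members were the probe sets for which at least 1 annotated gene symbol is a constant, variable or joining gene of the heavy (Igh), kappa (Igk) or lambda (Igl) locus. The rule found 52 of 45037 probe sets: 23 of the heavy chain, 25 of the kappa chain and 4 of the lambda chain. Of these, 39 name 1 gene and 13 name several, and 26 have names ending in _s_at, _x_at or _a_at, the manufacturer's sign that their probes can match more than 1 transcript. They carry 27 gene symbols, of which 26 were found in the mouse gene table. IgA, IgG3 and IgM are the only heavy chain isotypes that the annotation names here (Igha, Ighg3 and Ighm).

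All 12 mice were females of the BALB/c strain, 3 in each of 4 groups, and each array held RNA from a piece of 1 spleen. The immunized mice had received 1 intraperitoneal injection of 100 µg cartilage PG protein emulsified with 2 mg of the adjuvant dimethyldioctadecyl-ammonium bromide (DDA), and spleens were taken on day 12. The naïve mice of both colonies were untreated, so an effect of PG and one of the adjuvant cannot be told apart. The colonies are substrains of 1 inbred strain, and the ages of the mice used for the arrays are not given in the labels. The question was how the 2 colonies, which the study compared for susceptibility to PG-induced arthritis, differed in the spleen before and after immunization.

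An antibody is built of 2 identical heavy and 2 identical light chains. A developing B cell joins a variable and a joining segment (for the heavy chain also a diversity segment) to make the antigen-binding part of each chain, and the constant gene gives the isotype: IgM first, then IgG, IgA or IgE after class switching. Kappa chains are far more common than lambda chains in the mouse. In the spleen every B cell makes these transcripts, and plasma cells, the antibody-secreting end stage, make many more per cell than resting B cells do. Because the RNA is of whole tissue, fewer cells of a type and less RNA per cell cannot be told apart in any value given here.

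Every value is a log2 value relative to the median of its probe set over the 12 arrays, so that 0 is the median array and a difference of 1 is a doubling. The deposited values hold no signal level. Levels can therefore not be compared between genes. The identity of the tissue, a dim probe set or one near the upper limit of signal cannot be checked from these values. The medians of the arrays over all probe sets lay between -0.01 and 0.01. Several arrays carried genes of other cells: the 6 pigment cell genes had medians of 3.31 and 2.88 in naïve BALB/cJ mice 1 and 2, 1.63 in immunized BALB/cByJ mouse 2 and 2.33 in immunized BALB/cJ mouse 1, against 0.22 or less in the other 8 arrays. The 10 pancreatic acinar genes had a median of 2.26 in naïve BALB/cByJ mouse 1 and of at most 0.30 elsewhere. Erythroid genes differed between the naïve colonies: 16 of the 18 measured were called higher in BALB/cByJ, where 758 of all 18193 genes were. The erythroid medians were between 0.22 and 0.69 in the 3 naïve BALB/cByJ mice and between -1.57 and -0.27 in the 3 naïve BALB/cJ mice. The part of these cells in the results below was not tested. Some values are given without the 4 arrays with pigment genes, or with the erythroid mean as a covariate. Because the erythroid medians did not overlap between the naïve colonies, that covariate cannot tell a colony difference in naïve mice from an erythroid one. The same limit bears on colony differences over both states, which include the naïve mice.

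**Figure D1:**
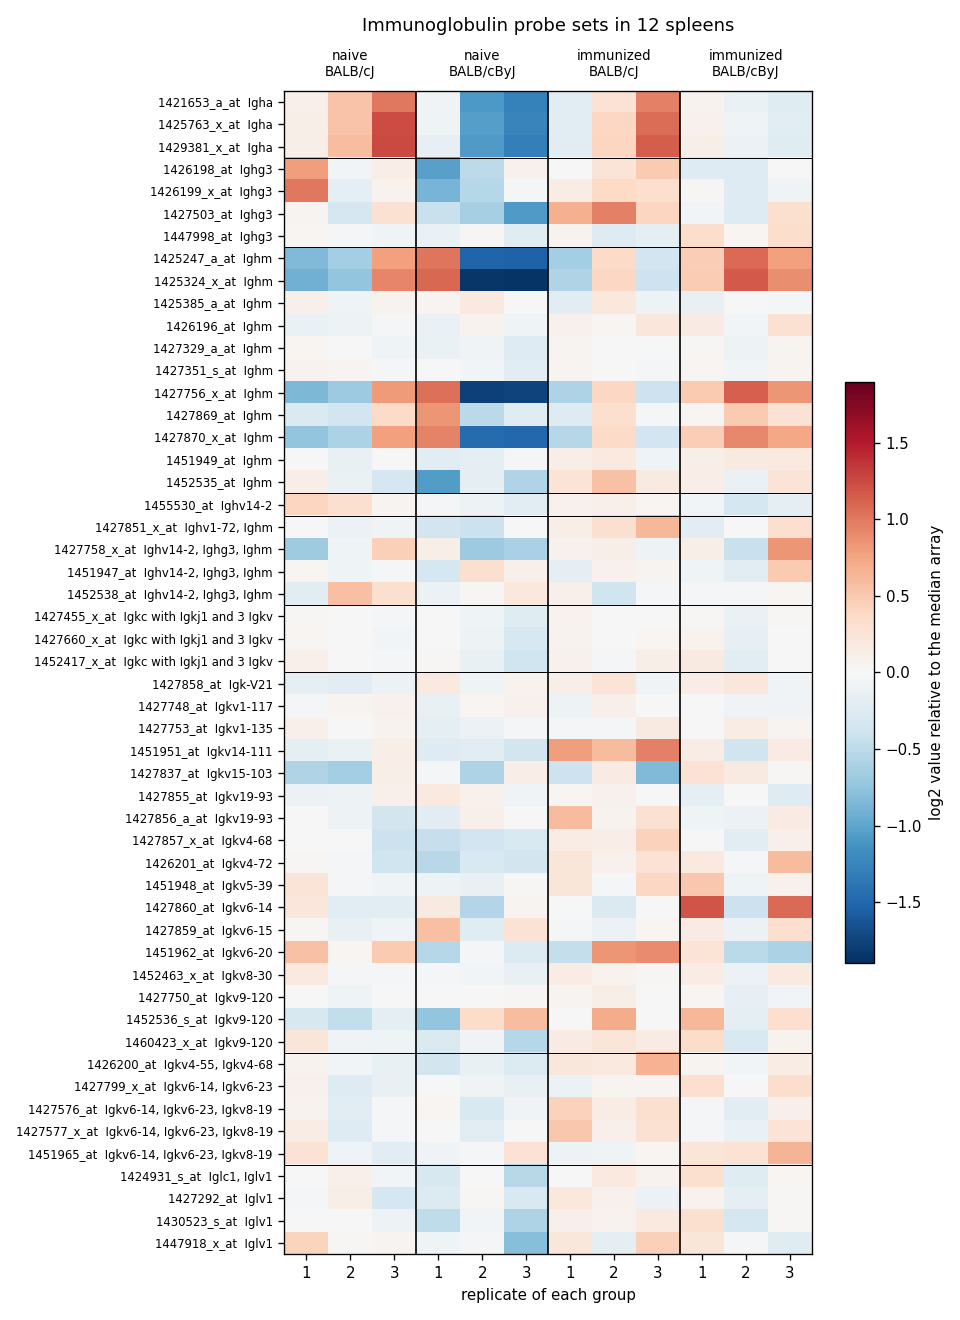
Log2 value relative to the median array (colour) of each of the 52 immunoglobulin probe sets (rows, grouped by chain and isotype) in each of the 12 spleens (columns, by group and replicate). The 3 Igha probe sets and 4 of the 11 Ighm probe sets show the strongest colours, and the 3 kappa constant probe sets are pale in all 12 arrays.

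Immunoglobulin probe sets varied more from animal to animal than most of the array did. Their median standard deviation (SD) within groups was 0.204, against 0.129 over all probe sets, and 11 of the 52 lay above the 99th percentile of all probe sets and 39 above the median. Over the 12 arrays, 22 of the 52 (42.3%) spanned more than 1 log2 unit, against 7.53% of all probe sets, and 8 (15.4%) spanned more than 2 units, against 0.766%. All 8 were heavy chain probe sets: 4 of Ighm, the 3 of Igha and 1 of Ighg3.

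The spread was uneven across the chains. Heavy chain probe sets had a median within-group SD of 0.299, lambda 0.205 and kappa 0.167. At the low end were the 3 probe sets that name the kappa constant gene Igkc together with Igkj1 and 3 variable genes, which spanned between 0.30 and 0.55 units over the 12 arrays (median SD 0.10), and the Ighm probe sets 1427351_s_at and 1427329_a_at, which spanned 0.29 and 0.30. Some single kappa variable genes, in contrast, had ranges up to 1.76 (Igkv6-14). The members share arrays and in many cases sequence, so these counts describe the probe sets and are not independent observations.

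**Figure D2:**
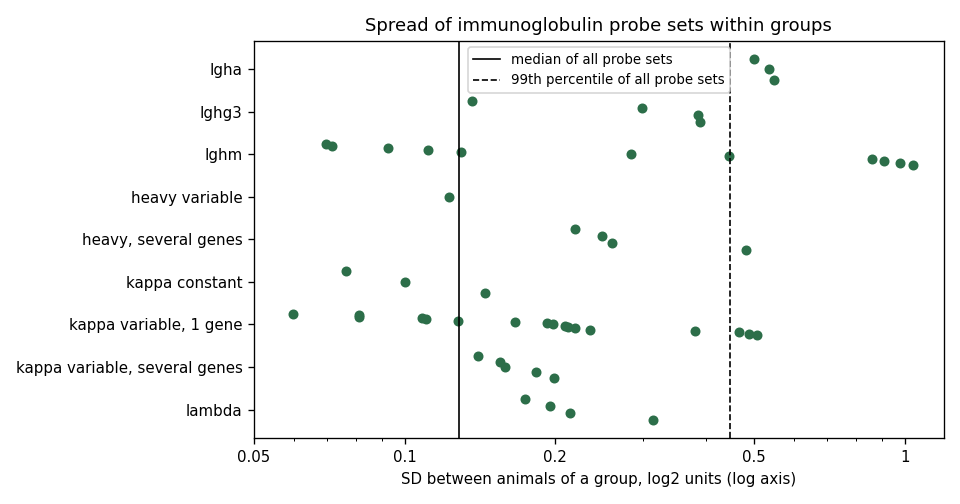
SD between animals of the same group (log2 units, log axis) for each immunoglobulin probe set (points), by class; the solid line is the median and the dashed line the 99th percentile of all 45037 probe sets (0.129 and 0.447). All 3 Igha and 4 of the 11 Ighm probe sets lie right of the dashed line, whereas 2 of the 3 kappa constant probe sets lie left of the median.

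Transcripts of Igha, the constant region of IgA, the antibody of mucosal surfaces, were lower in naïve BALB/cByJ than in naïve BALB/cJ spleens on each of its 3 probe sets. Within an array these lay at most 0.26 units apart, so their mean is given for each animal. In naïve BALB/cJ mice 1 to 3 it was 0.11, 0.56 and 1.16, and in naïve BALB/cByJ mice 1 to 3 it was -0.10, -1.07 and -1.28. The 2 naïve groups did not overlap, but BALB/cByJ mouse 1 lay near BALB/cJ mouse 1 and well above its own 2 group mates. In immunized mice the means were -0.22, 0.35 and 1.06 in BALB/cJ and 0.08, -0.11 and -0.22 in BALB/cByJ, and these groups overlapped.

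The log2 difference between the naïve colonies (BALB/cByJ minus BALB/cJ) was -1.35 (SE 0.332, adjusted p = 0.0398 from limma), -1.43 (SE 0.354, adjusted p = 0.0415) and -1.50 (SE 0.362, adjusted p = 0.0375) for 1421653_a_at, 1425763_x_at and 1429381_x_at. In immunized mice it was between -0.43 and -0.52, with adjusted p of 0.745 to 0.767. The mean over both states was called for 1429381_x_at (-1.01, adjusted p = 0.0435) and 1425763_x_at (-0.96, adjusted p = 0.0495) and missed the threshold for 1421653_a_at (-0.89, adjusted p = 0.05003).

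The naïve Igha calls were close to the threshold. With the erythroid mean of each array as a covariate the differences were between -0.97 and -1.19 (adjusted p 0.658 to 0.681), and without the 4 arrays in which pigment genes were high, an alternative chosen after seeing the data that leaves naïve BALB/cJ with 1 array, between -1.81 and -2.11 (adjusted p 0.583 to 0.772). In the immunized mice the difference depended on the run of sample numbers. Among numbers 29 to 33 (2 BALB/cByJ mice and 1 BALB/cJ mouse) BALB/cByJ was higher by 0.18 to 0.22, and among numbers 48 to 50 (1 BALB/cByJ mouse and 2 BALB/cJ mice) it was lower, at -0.83 to -1.01. The labels do not say that these runs were batches.

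Ighg3 encodes the constant region of IgG3, a mouse isotype typical of responses to carbohydrate antigens. One of its 4 probe sets, 1427503_at, differed between the colonies. It read 0.05, -0.32 and 0.29 in naïve BALB/cJ mice 1 to 3 and -0.42, -0.63 and -1.08 in naïve BALB/cByJ mice. After immunization it read 0.68, 0.96 and 0.41 in BALB/cJ and -0.05, -0.24 and 0.30 in BALB/cByJ. In both states each BALB/cByJ animal was below each BALB/cJ animal, and in both colonies each immunized animal was above each naïve one.

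For 1427503_at the colony difference over both states was -0.70 (SE 0.144, adjusted p = 0.0201), and the 4 groups differed (F = 15.5, adjusted p = 0.0269). In the naïve and the immunized mice alone it was -0.71 (adjusted p = 0.0703) and -0.68 (adjusted p = 0.461). Within the 2 runs of immunized sample numbers the difference was -0.82 and -0.38. With immunization the probe set was higher by 0.68 (SE 0.204, adjusted p = 0.378) in BALB/cJ and by 0.71 (adjusted p = 0.406) in BALB/cByJ, neither of which passed the test. The call over both states was lost without naïve BALB/cJ mouse 1 (adjusted p = 0.0585), naïve BALB/cByJ mouse 3 (0.0515) or immunized BALB/cByJ mouse 2 (0.0582), with the erythroid mean as a covariate (-1.01, adjusted p = 0.153) and without the 4 arrays with pigment genes (-0.78, adjusted p = 0.489).

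The other Ighg3 probe sets gave different patterns, and the 4 disagreed by up to 1.2 units in a single array. The pair 1426198_at and 1426199_x_at, which lay within 0.27 units of each other, had means of 0.90, -0.12 and 0.10 in naïve BALB/cJ mice and -0.96, -0.52 and 0.03 in naïve BALB/cByJ mice. These naïve groups overlapped, and the differences of -0.78 and -0.77 did not pass the test (adjusted p 0.118 and 0.123). In immunized mice the pair had means of 0.07, 0.31 and 0.40 in BALB/cJ and -0.11, -0.25 and -0.04 in BALB/cByJ, and these means did not overlap. Taken singly, the immunized groups did not overlap for 1426199_x_at but did for 1426198_at. The differences of -0.38 and -0.41 were not called (adjusted p 0.745 and 0.722). The 4th probe set, 1447998_at, lay the other way in immunized mice, at 0.06, -0.24 and -0.17 in BALB/cJ and 0.33, 0.04 and 0.34 in BALB/cByJ (difference 0.35, adjusted p = 0.466).

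**Figure D3:**
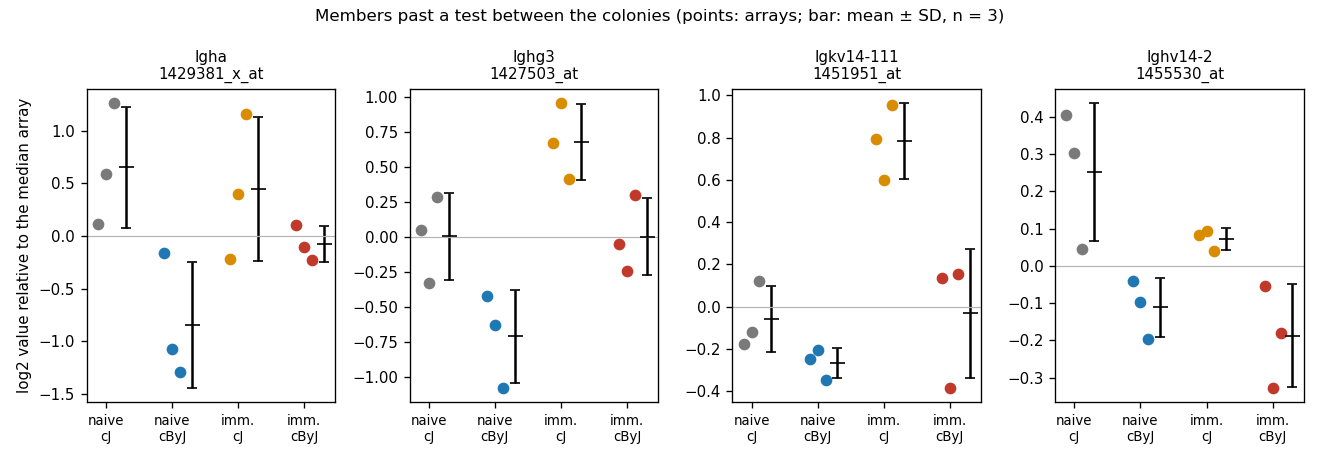
Log2 value relative to the median array (vertical axes, each with its own scale) of 4 immunoglobulin probe sets in naïve and immunized BALB/cJ (cJ) and BALB/cByJ (cByJ) mice; points are arrays and bars the mean ± SD of 3. The Igha groups are apart only in naïve mice, Igkv14-111 is highest in the 3 immunized BALB/cJ mice (0.60 to 0.96), and the 6 BALB/cByJ values of Ighv14-2 lie below the 6 BALB/cJ values.

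The 11 probe sets annotated to Ighm, the constant region of IgM, did not behave as 1 transcript. The wide ones were 1425247_a_at, 1425324_x_at, 1427756_x_at and 1427870_x_at, which spanned 2.44 to 3.02 units over the 12 arrays, the widest ranges of all members beside those of Igha. In each array these 4 lay within 0.39 units of each other. Their mean was -0.84, -0.67 and 0.83 in naïve BALB/cJ mice 1 to 3 and 1.02, -1.65 and -1.66 in naïve BALB/cByJ mice. In immunized mice it was -0.59, 0.38 and -0.38 in BALB/cJ and 0.48, 1.07 and 0.81 in BALB/cByJ. Animals of 1 naïve group thus differed by up to 2.69 units, more than any 2 group means did. Probe set 1427869_at moved with them over a smaller range (1.34 units).

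None of the 4 wide probe sets was called in any contrast. In BALB/cByJ the immunized mean was higher than the naïve one by 1.37 to 1.72 (adjusted p 0.548 to 0.573), but in the mean of the 4 naïve BALB/cByJ mouse 1 lay above 2 of the 3 immunized animals. In BALB/cJ the corresponding difference was 0.01 to 0.06. Between the immunized colonies the 4 did not overlap and were higher in BALB/cByJ by 0.88 to 1.04 (adjusted p 0.707 to 0.734), and this held in direction within both runs of sample numbers (1.23 to 1.43 and 0.73 to 0.89). Among all 52 members, 5 were higher in immunized BALB/cByJ without overlap and 8 lower, where 3666 and 3097 of 45037 probe sets were.

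The other Ighm probe sets were flat or moved differently. The mean of 1427329_a_at and 1427351_s_at stayed between -0.23 and 0.06 in all 12 arrays. It was lowest in naïve BALB/cByJ mouse 3, where the mean of the 4 wide probe sets was -1.66, but it was at -0.06 in naïve BALB/cByJ mice 1 and 2, which the wide probe sets put 2.68 units apart. Probe set 1452535_at was lowest in naïve BALB/cByJ mouse 1 (-1.07), where the mean of the wide probe sets was 1.02, and its differences with immunization were 0.44 (adjusted p = 0.532) in BALB/cJ and 0.69 (adjusted p = 0.394) in BALB/cByJ. The remaining 1425385_a_at, 1426196_at and 1451949_at stayed between -0.21 and 0.28. What each of these probe sets measures beside the annotated gene is not known from the files, and the grouping into wide and flat ones was made after their values were seen.

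**Figure D4:**
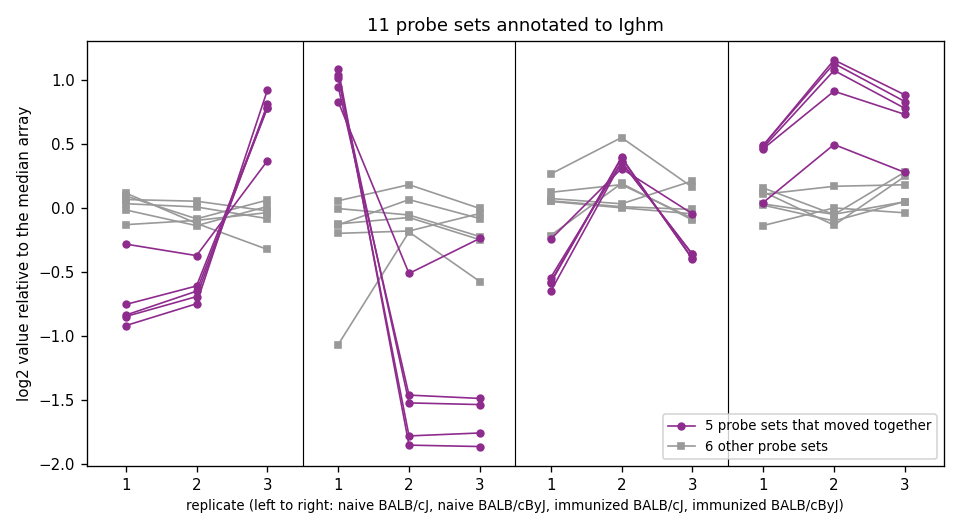
Log2 value relative to the median array of the 11 probe sets annotated to Ighm in each array (3 replicates in each of 4 groups); a line joins the values of 1 probe set within a group and implies no order of the replicates. The 5 purple probe sets (circles) move together, from -1.86 to 1.16, whereas the 6 grey ones (squares) do not follow them.

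Ighv14-2 is a heavy chain variable gene, and its single probe set, 1455530_at, was the only member whose 6 BALB/cByJ arrays all lay below its 6 BALB/cJ arrays, as 0.837% of all probe sets did. It read 0.40, 0.30 and 0.04 in naïve and 0.08, 0.09 and 0.04 in immunized BALB/cJ mice, and -0.04, -0.10 and -0.20 in naïve and -0.05, -0.33 and -0.18 in immunized BALB/cByJ mice. The difference over both states was -0.31 (SE 0.0709, adjusted p = 0.0293). In naïve and in immunized mice alone it was -0.36 (adjusted p = 0.0632) and -0.26 (adjusted p = 0.586), and within the runs of immunized sample numbers -0.27 and -0.25. The call was lost when any of 7 arrays was left out (naïve BALB/cJ mouse 1 or 2, naïve BALB/cByJ mouse 3, immunized BALB/cJ mouse 1 or 3, immunized BALB/cByJ mouse 2 or 3), at adjusted p between 0.0615 and 0.0867. It was also lost with the erythroid mean as a covariate (-0.19, adjusted p = 0.693) and without the 4 arrays with pigment genes (-0.17, adjusted p = 0.771).

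There were 4 heavy chain probe sets that name several genes, and none of them was called. The widest was 1427758_x_at, assigned to Ighv14-2, Ighg3 and Ighm together, which ran from -0.69 in naïve BALB/cByJ mouse 2 to 0.84 in immunized BALB/cByJ mouse 3. The others of that assignment, 1451947_at and 1452538_at, had colony differences between -0.18 and 0.10 in the naïve and the immunized mice. Probe set 1427851_x_at, assigned to Ighv1-72 and Ighm, read 0.12, 0.31 and 0.63 in immunized BALB/cJ mice against -0.11 to 0.00 in the naïve ones (difference 0.41, adjusted p = 0.459).

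The kappa constant region, which every kappa light chain carries, showed little change. The mean of its 3 probe sets was 0.05, 0.00 and -0.04 in naïve BALB/cJ mice, 0.00, -0.11 and -0.31 in naïve BALB/cByJ mice, 0.07, -0.01 and 0.05 in immunized BALB/cJ mice and 0.09, -0.16 and 0.00 in immunized BALB/cByJ mice. Only naïve BALB/cByJ mouse 3 was more than 0.2 units from the median array. Differences between the naïve colonies were -0.10 to -0.19 (adjusted p 0.407 to 0.551), those between the immunized colonies -0.05 to -0.07 (adjusted p 0.898 to 0.908), and those with immunization 0.03 to 0.04 in BALB/cJ and 0.08 to 0.15 in BALB/cByJ (adjusted p 0.732 to 0.956).

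Among the kappa variable genes, Igkv14-111 (1451951_at) stood out. It read -0.18, -0.12 and 0.12 in naïve BALB/cJ mice and 0.79, 0.60 and 0.96 in immunized ones. In BALB/cByJ it read -0.25, -0.21 and -0.35 in naïve mice and 0.13, -0.39 and 0.16 in immunized ones. The 3 immunized BALB/cJ animals were thus above all 9 others, whereas the immunized BALB/cByJ animals overlapped the naïve ones of either colony.

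The 4 groups differed for Igkv14-111 (F = 21.1, adjusted p = 0.0139), and the colony difference over both states was -0.51 (SE 0.101, adjusted p = 0.0165). Leaving out any single array kept both calls. The second was lost with the erythroid mean as a covariate (-0.50, adjusted p = 0.615), and both were lost without the 4 arrays with pigment genes (-0.51, adjusted p = 0.361, and F = 24.3, adjusted p = 0.153). Between the immunized colonies the difference was -0.81 (SE 0.143, adjusted p = 0.0595), just outside the threshold, and within the runs of sample numbers -0.92 and -0.62. With immunization it was 0.84 in BALB/cJ (SE 0.143, adjusted p = 0.323) and 0.24 in BALB/cByJ (adjusted p = 0.676). The difference of the responses was -0.61 (adjusted p = 0.549) and was not called.

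Of the 16 other probe sets naming 1 kappa variable gene, none was called in any contrast. Igkv6-14 (1427860_at) was high in 2 of 3 immunized BALB/cByJ mice (1.20, -0.40 and 1.07) and lay between -0.56 and 0.21 in the other 9 arrays. Igkv6-20 (1451962_at) read 0.56, 0.03 and 0.50 in naïve and -0.46, 0.83 and 0.90 in immunized BALB/cJ mice, against -0.60 to 0.26 in the 6 BALB/cByJ mice (difference over both states -0.68, adjusted p = 0.123). Igkv4-72 (1426201_at) read -0.52, -0.29 and -0.34 in naïve and 0.19, -0.02 and 0.61 in immunized BALB/cByJ mice, groups that did not overlap, and the difference of 0.64 (SE 0.149) had an adjusted p of 0.284.

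Probe sets of 1 variable gene did not always agree. The 3 that name Igkv9-120 (1427750_at, 1460423_x_at and 1452536_s_at) had ranges of 0.26, 0.89 and 1.46, and in naïve BALB/cByJ mouse 3 they read 0.03, -0.54 and 0.59. The 5 probe sets that name several kappa variable genes spanned between 0.59 and 1.00 units. Of these, 1426200_at (Igkv4-55 and Igkv4-68) was higher in immunized than in naïve BALB/cJ animals without overlap (0.21, 0.19 and 0.65 against 0.07, -0.05 and -0.14), with a difference of 0.39 (adjusted p = 0.378). A further 4 probe sets name only the kappa locus and no gene of it, and were not members. One of them, 1452557_a_at, was called between the naïve colonies (adjusted p = 0.0384) and was higher in BALB/cByJ (0.50, 0.19 and 0.31 against -0.49, -0.01 and -0.49).

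The lambda chain was represented by 3 probe sets of Iglv1 and 1 of Iglc1 with Iglv1, the variable and constant genes of the lambda-1 chain. Their mean was 0.10, 0.06 and -0.11 in naïve BALB/cJ mice, -0.28, -0.02 and -0.55 in naïve BALB/cByJ mice, 0.13, 0.04 and 0.15 in immunized BALB/cJ mice and 0.23, -0.19 and -0.04 in immunized BALB/cByJ mice. Naïve BALB/cByJ mouse 3 was again the lowest. No lambda probe set was called (2 were lower between the naïve colonies at an unadjusted p under 0.05), with naïve colony differences between -0.10 and -0.48 (adjusted p 0.25 to 0.753) and BALB/cByJ immunization differences between 0.15 and 0.37 (adjusted p 0.574 to 0.779).

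Counted over all members, the naïve colonies differed at 3 of 52 probe sets, all of them Igha and lower in BALB/cByJ, where 4.39% of all probe sets were called (1.71% lower in BALB/cByJ). The estimate was below 0 for 39 of the 52 (median -0.15), as it was for 23482 of all 45037 probe sets (median -0.008). Of the 52, 10 had naïve groups that did not overlap with BALB/cByJ lower, a pattern found in 11.9% of all probe sets. Over both states 5 of 52 were called lower in BALB/cByJ (2 of Igha and 1 each of Ighg3, Ighv14-2 and Igkv14-111) and none higher, where 4.62% of all probe sets were called (1.58% lower). In immunized mice none of the 52 was called by limma, where 0.12% of all probe sets were, and 9 had an unadjusted p under 0.05, as 7.92% of all probe sets did. The one-way analysis of variance also called none there. The test over the 4 groups called 2 of 52 (1427503_at of Ighg3 and Igkv14-111), where 1.77% of all probe sets were called.

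These counts rested on single arrays. The count of 3 naïve calls became 0 without naïve BALB/cJ mouse 1 or 2, naïve BALB/cByJ mouse 2 or 3 or immunized BALB/cByJ mouse 2. It became 1 without immunized BALB/cByJ mouse 1 or immunized BALB/cJ mouse 2, in each case 1 of the 3, and 1 without naïve BALB/cJ mouse 3, a member that was not among the 3. The count of 5 over both states became 1 without naïve BALB/cJ mouse 1 or immunized BALB/cByJ mouse 2. It became 2 without naïve BALB/cJ mouse 2, naïve BALB/cByJ mouse 3 (1 of them not among the 5), immunized BALB/cByJ mouse 3 or immunized BALB/cJ mouse 3, and 3 without immunized BALB/cByJ mouse 1 or immunized BALB/cJ mouse 2. The count of 2 over the 4 groups became 1 without naïve BALB/cJ mouse 1, naïve BALB/cByJ mouse 3 or immunized BALB/cJ mouse 1 or 2, and 4 without naïve BALB/cJ mouse 3.

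Immunization changed no immunoglobulin probe set past the threshold. The counts called by limma were 0 of 52 in BALB/cJ (0% of all probe sets), 0 of 52 in BALB/cByJ (0.0511%) and 0 of 52 over both colonies (0.0466%). The one-way analysis of variance with Student-Newman-Keuls comparisons called none in either colony. At an unadjusted p under 0.05, 10 members were higher and 0 lower in BALB/cJ, where 4.03% and 5.16% of all probe sets were. In BALB/cByJ 16 were higher and 1 lower, where 4.63% and 3.67% of all probe sets were, and over both colonies 15 were higher and 0 lower, where 5.28% and 4.63% were. The 10 higher in BALB/cJ became 5 without naïve BALB/cJ mouse 2 and 5 without the 4 arrays with pigment genes, and the 16 higher in BALB/cByJ became 6 without immunized BALB/cByJ mouse 3.

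The estimates lay mostly on the higher side after immunization. In BALB/cJ 37 of 52 were above 0 (49.8% of all probe sets), with a median of 0.05, and in BALB/cByJ 44 of 52 (50% of all probe sets), with a median of 0.27. Under the alternatives that kept the 52 probe sets the BALB/cJ count ran from 28 to 45 and its median from 0.02 to 0.15, and the BALB/cByJ count ran from 41 to 46 and its median from 0.18 to 0.31. Without naïve BALB/cJ mouse 2 the BALB/cJ values were 28 of 52 and 0.02, and without naïve BALB/cJ mouse 1 or 3 or immunized BALB/cJ mouse 1 or 3 the median was 0.08 to 0.11. Over both colonies 46 of 52 were above 0 (49.3% of all probe sets), with a median of 0.19, and the count was between 44 and 47 under all alternatives that kept the 52 probe sets. By chain, the medians in BALB/cByJ were 0.35 for heavy, 0.15 for kappa and 0.31 for lambda probe sets, and in BALB/cJ 0.01, 0.09 and 0.10. Immunized animals were above naïve ones without overlap for 14 members in BALB/cJ (7.53% of all probe sets) and 9 in BALB/cByJ (6.91%), and below them for 0 members in either (9.51% and 5.2% of all probe sets). The naïve arrays serve both in the colony and in the immunization comparisons, and the low values of naïve BALB/cByJ mice enter both. A list of 12 neutrophil and macrophage genes also had higher medians with immunization: 0.71 in BALB/cJ, 1.06 in BALB/cByJ and 0.89 over both colonies. In that order, 9, 11 and 10 of the 12 estimates were above 0 and 3, 1 and 2 below. The list pools the 2 cell types, so its medians do not show that macrophage genes rose. Over both colonies 6 of the 12 (50%) were called higher, where 0.176% of all genes were called in either direction. The 6 included Camp (1.55, adjusted p = 0.0292) and Ltf (1.59, adjusted p = 0.0348), proteins of neutrophil granules. The median of the 12 in each array lay between -0.50 and 0.13 in naïve BALB/cJ, between -0.98 and -0.46 in naïve BALB/cByJ, between 0.44 and 0.69 in immunized BALB/cJ and between -0.11 and 0.87 in immunized BALB/cByJ mice. Their part in the immunization estimates was not tested.

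**Figure D5:**
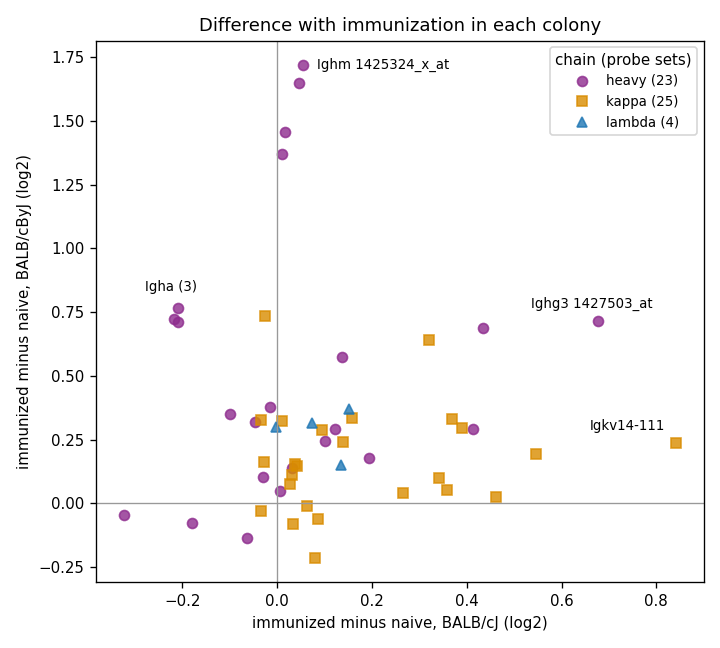
Log2 difference between immunized and naïve mice in BALB/cJ (horizontal) and BALB/cByJ (vertical) for each of the 52 immunoglobulin probe sets, by chain. Of the 52, 37 lie right of 0 and 44 above 0, the 4 wide Ighm probe sets reach 1.37 to 1.72 in BALB/cByJ alone, and no point passed the adjusted threshold in either colony.

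The difference of the responses (BALB/cByJ minus BALB/cJ) was called for 0 of the 52 members and for 0% of all probe sets. At an unadjusted p under 0.05, 1 member was higher and 3 were lower, as 4.49% and 3.1% of all probe sets were. The 1 higher became 8 without naïve BALB/cByJ mouse 1, 5 without naïve BALB/cJ mouse 1 or immunized BALB/cJ mouse 3, 3 without immunized BALB/cByJ mouse 2 and 2 without naïve BALB/cByJ mouse 3 or naïve BALB/cJ mouse 3. The 3 lower became 1 without naïve BALB/cJ mouse 2, immunized BALB/cJ mouse 1 or 3 or immunized BALB/cByJ mouse 1. The estimates ran from -0.61 for Igkv14-111 to 1.66 for 1425324_x_at of Ighm (adjusted p = 0.718), and those of Igha were 0.92 to 0.98 (adjusted p 0.695 to 0.703).

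Genes of B cells and plasma cells, which make immunoglobulin, were read at the level of genes. Of 16 B cell and B cell receptor signalling genes, all 16 estimates were below 0 between the naïve colonies (median -0.22). Of the 16, 12 were lower there at an unadjusted p under 0.05. One was called there: Fcer2a, the low-affinity IgE receptor CD23 of mature B cells, at -0.45 (adjusted p = 0.0233), where 7.54% of all genes were called. Cd79a and Cd79b, the signalling chains of the B cell receptor, were at -0.13 (adjusted p = 0.318) and -0.28 (adjusted p = 0.059). Of 19 plasma cell and antibody secretion genes none was called between the naïve colonies, where the median was -0.22, 16 were below 0 and 11 were lower at an unadjusted p under 0.05. Among all 18193 genes, 9711 were below 0 between the naïve colonies and 2316 were lower at that unadjusted threshold. The median level of the plasma cell list was between -0.27 and -0.15 in naïve BALB/cByJ mice and between -0.07 and 0.14 in naïve BALB/cJ mice.

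Jchain encodes the chain that links IgM and IgA into polymers. It read 0.10, -0.10 and -0.05 in naïve and 0.20, 0.07 and 0.12 in immunized BALB/cJ mice, and -0.11, -0.25 and -0.34 in naïve and 0.05, -0.18 and 0.06 in immunized BALB/cByJ mice. Its difference between the naïve colonies was -0.22 (adjusted p = 0.147), and with immunization 0.14 in BALB/cJ (adjusted p = 0.61) and 0.21 in BALB/cByJ (adjusted p = 0.551). The plasma cell regulators Prdm1, Xbp1 and Irf4, the surface marker Sdc1 (CD138) and Tnfrsf17, the BCMA receptor of plasma cells, were not called in any contrast. Over both states Hsp90b1, a chaperone of the endoplasmic reticulum, was called lower in BALB/cByJ (-0.31, adjusted p = 0.0376), 1 of the 19 where 7.67% of all genes were called. With immunization of BALB/cByJ the plasma cell list had a median of 0.27 with none called, where 0.0824% of all genes were called. At an unadjusted p under 0.05, 10 of its genes were higher, where 1043 of all 18193 genes were.

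Of 18 measured genes of class switching and somatic hypermutation, 4 were called higher and 1 lower in naïve BALB/cByJ, where 7.54% of all genes were called in either direction, the background also for the 2 lists that follow. The higher ones were Ung, the uracil glycosylase that acts on deaminated immunoglobulin DNA (0.50, adjusted p = 0.00872), the exonuclease Exo1 (0.48), the mismatch repair gene Msh6 (0.44) and the translesion polymerase Rev1 (0.31). The lower one was Cd40, the receptor of T cell help (-0.34, adjusted p = 0.0241). The first 4 also act in DNA repair outside B cells. Among 7 V(D)J recombination genes only Hmgb2, a chromatin protein also abundant in dividing cells, was called (0.83, adjusted p = 0.00937). Among 13 receptors of immunoglobulins, Fcmr, the receptor of IgM (-0.32, adjusted p = 0.0171), and the Fc receptor-like protein of B cells Fcrl1 (-0.34, adjusted p = 0.0483) were called lower.

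Germinal centre genes, in contrast to the immunoglobulin probe sets, were called with immunization in BALB/cByJ: 6 of 11 were higher, where 0.0824% of all genes were called. Among the 6 were Rgs13, a regulator of G protein signalling (3.07, adjusted p = 0.00378), and S1pr2, which confines B cells to the germinal centre (0.80, adjusted p = 0.00378). In BALB/cJ 0 of 11 were called (0% of all genes). At an unadjusted p under 0.05, 3 were higher there, where 854 of all 18193 genes were. The difference of the responses was called for none of the 11 (0% of all genes). Of the 11, 10 were higher at an unadjusted p under 0.05, where 999 of all 18193 genes were. The 7 contrasts called none of the 9 T cell genes measured, and at an unadjusted p under 0.05 at most 2 of them in a contrast.

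The probe sets most like the mean of the 4 Ighg3 probe sets over the 12 arrays, among all that are not members, were those of Cacna1s (a calcium channel subunit), Mapk8 (the kinase JNK1), Gpr137b, Smndc1 and Pdf, with Pearson r of 0.96, 0.95, 0.94, 0.93 and 0.93 and Spearman rho of 0.95, 0.93, 0.97, 0.93 and 0.94. These are descriptions chosen from all probe sets over the same 12 arrays, and the 4 Ighg3 probe sets behind the mean differed among themselves.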

How the data were processed

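Spleen RNA of 12 mice was hybridized to Affymetrix whole-genome mouse arrays. The deposited values are log2 values that the authors made in GeneSpring by robust multi-array averaging (quantile normalization, median polish) and then centred, probe set by probe set, on the median of the 12 arrays. With no signal level left, neither a filter on dim probe sets nor a background correction could be applied, and the precision is limited by the number of arrays. The 64 control probe sets were left out, and 0 columns belonged to other samples.

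A limma fit (version 3.58.1, R 4.3.3) with a mean per group over all 12 arrays and eBayes without trend gave 7 contrasts and a moderated F-test. For these probe set results Benjamini-Hochberg adjustment covered all 45037 probe sets, and "called" means an adjusted p under 0.05. The labels name the mice of a group as biological replicates. The fit was tested on simulated data. Gene names came from the array annotation (34945 probe sets with 1 gene, 932 with several, 9160 with none) and were looked up in the GRCm38.p6 gene table. Lists were read for 18193 genes, averaging the probe sets that name a single gene. The same fit was run on these gene means, with the adjustment over the 18193 genes. The members and lists were chosen with earlier results of these data known.

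Named members are all probe sets of constant genes, up to 12 called members per contrast with the smallest p, and the 6 with the widest range. From the lists, a fixed set of B and plasma cell genes and up to 4 called genes per contrast are named. For likeness, the 5 probe sets with the highest correlation were taken. Other members, and Cd40, were named after their values were seen.

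Alternatives were the study's one-way analysis of variance with Student-Newman-Keuls comparisons, quantile normalization, array medians subtracted, robust variance, array weights, compared groups only, replicate number or sample-number run as a block, an erythroid covariate, probe sets without _s_at, _x_at and _a_at, a filter that kept the 22518 probe sets with the larger SD, and each array left out. Same-numbered mice are not stated to be related, so no pairing was used. Their deviations from the group means correlated between -0.29 and 0.37 over all probe sets and between -0.77 and 0.58 over the members.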

Additional observations from a re-analysis of the deposited data

How the results depend on the processing

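Over 22 pairs of a named probe set and a contrast, 505 values under the alternatives lost a call in 102 cases and gained one in 12. The direction was kept in all 505, but 2 pairs (1427503_at and Igkv14-111 over the 4 groups, 23 values each) held F values. An F value has no direction, so these could not reverse. The 3 naïve colony calls (all Igha) became 0 with the compared groups only, the erythroid covariate, the analysis of variance with Student-Newman-Keuls comparisons, quantile normalization or robust variance. The setting without _s_at, _x_at and _a_at left out all 3 Igha probe sets, so its count of 0 was no test of them. An alternative chosen after seeing the data, without the 4 arrays in which pigment genes were high, left naïve BALB/cJ with 1 array. The count of naïve colony calls became 1 with the replicate number as a block, a member other than the 3, and was between 0 and 4 with each array left out. The adjusted p of the 3 ran from 0.0026 to 0.772 over the alternatives. The count of 5 over both states became 0 with the erythroid covariate and 8 with the filter on SD. It became 3 with quantile normalization, the replicate block, the run block or robust variance, and was between 1 and 6 with each array left out. Without _s_at, _x_at and _a_at it was also 3, but the 2 Igha members among the 5 were not tested there. The count of 2 over the 4 groups became 13 with array weights, 7 with the filter on SD and 0 with the analysis of variance or without the pigment arrays, and between 1 and 4 with each array left out. Among immunized mice 0 became 1 with array weights, the filter on SD or the replicate block, and lay between 0 and 0 with each array left out. For immunization 0 became 2 with array weights in BALB/cJ, and 1 with array weights over both colonies, where leaving out an array gave 0 to 1. For immunization in BALB/cByJ and the difference of responses the count was 0 under all alternatives run. The naïve median of -0.15 lay between -0.17 and -0.11 under the alternatives that kept the 52 probe sets. Where the probe sets without _s_at, _x_at and _a_at were used, 26 members remained, and with the filter on SD 41 of 52, so those settings tested fewer members. For the other settings the cause was not tested. Replicate numbers are shared between groups as names only, and the replicate block changed the counts as given. Background correction and a filter on signal could not be run on centred values, and the combined contrasts have no compared-groups-only or Student-Newman-Keuls value. With 3 animals a group and within-group SDs above 0.8 units for 4 Ighm probe sets, differences over 1 unit there did not reach the threshold.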
